A study of Mus musculus with 9 samples.

Results

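RNA levels and the histone mark H3K4me3 were set side by side in granulocyte-macrophage progenitors (GMP) of the mouse. Of the 9 samples of the study, the 3 GMP samples were used: 2 RNA sequencing libraries and 1 H3K4me3 chromatin immunoprecipitation (ChIP) library. The study followed the eosinophil line from GMP through eosinophil progenitors (EoP) to mature eosinophils (Eos). All GMP came from untreated Balb/c mice at homeostasis and were sorted from pooled bone marrow by a gate on cells without lineage markers that carried CD16/32, CD34 and much c-kit, with no genetic change named. The RNA libraries came from 2 independent sorts and the chromatin from 1 sort, pulled down with a Millipore antibody to H3K4me3. The labels do not say whether the chromatin sort shared cells or animals with an RNA sort. The GMP RNA tables held 23471 genes by symbol, and the GMP peak table held 30645 different intervals, of which 20109 (65.6%) were annotated by the authors to a promoter. A gene is called marked here when it had at least 1 such interval, and detected when it had at least 1 RPKM (reads per kilobase of transcript, scaled to the library's total) in both libraries.

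H3K4me3 is a methyl mark on the histone tail that is laid down around the starts of active genes and over CpG-rich promoters, also at many genes with little RNA. GMP are the bone marrow progenitors of neutrophils, monocytes and, by way of EoP, eosinophils. They make large amounts of the serine proteases and myeloperoxidase that are stored in the primary (azurophil) granules of neutrophils. Factors such as PU.1, C/EBPα and GFI1 are known to drive these genes.

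The RNA libraries held 6576661 and 5226653 estimated counts, and a count of 0 allows up to 0.456 and 0.574 CPM in them, by counting error alone. The ribosomal RNA precursor Rn45s took 12.9% and 12.6% of these counts. Across the 8529 detected genes the log2 RPKM of the libraries had a Pearson correlation of 0.965, and 0.774% of them were at least 2-fold higher in library 1 and 0.844% at least 2-fold higher in library 2. With 1 cell type, 2 RNA libraries and 1 ChIP library, no group comparison could be tested. Relations across genes are descriptions, because genes of 1 library are not replicates, and the value from each RNA library stands for the error. The read depth behind the peak table is unknown. Because the cells were sequenced in bulk, fewer cells of a type and less RNA per cell cannot be told apart.

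The 3 granule genes that identify GMP were among the most abundant, and these and the 4 genes of the gate were marked. Mpo, which encodes myeloperoxidase, had 4058 and 3711 RPKM in libraries 1 and 2 (mean 3884 ± 245, SD, n = 2) and was second only to Rn45s. Elane, for neutrophil elastase, had 2437 and 2061 RPKM, and Prtn3, for proteinase 3, had 975 and 902. The gate genes themselves were lower. Cd34 had 17.7 and 16.2 RPKM, Kit, the receptor for stem cell factor, had 20.7 and 19.1, and the CD16/32 genes Fcgr3 and Fcgr2b had 6.89 and 8.56 and 8.33 and 9.78. All 7 were detected and had a promoter interval.

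Markers of erythroid, stromal, B and megakaryocyte cells were low, while mast cell and basophil markers, most eosinophil markers and Nkg7 were not. Neutrophil markers were mixed. None of 5 erythroid and none of 4 stromal markers was detected, with the highest at 1.20 RPKM (Hbb-b1) and 0.175 RPKM (Col1a1) in mean. Of 5 B cell markers 1 was detected (Cd79b, 6.77 and 6.22 RPKM), and of 5 T and NK cell markers 1 (Nkg7, 313 and 234), a gene that is also expressed by myeloid progenitors. Of 4 megakaryocyte markers 1 was detected, Pf4 at 5.19 and 8.20 RPKM. All 5 mast cell and basophil markers were detected, from Ms4a2 at 10.97 and 9.19 RPKM to Prss34 at 141 and 120, and their sum was 311 and 282. Neutrophil markers summed to 46.5 and 9.68 RPKM, with 2 of 5 detected, Ngp and Camp. The B cell set summed to 8.75 and 6.84 RPKM and the megakaryocyte set to 5.73 and 9.30. Eosinophil markers summed to 439 and 103 RPKM, with 4 of 5 detected. The neutrophil and eosinophil sets were thus higher in library 1. No marker of any set was at 0 in both libraries.

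The share of genes with promoter H3K4me3 was larger at each higher RNA level up to 1 RPKM and differed little above it. Of all genes, 56.6% were marked. The share was 9.93% of the 2044 genes listed at 0 RPKM in both libraries, 22.9% at a mean up to 0.1 RPKM and 44.3% from there to 1 RPKM. Above that it was 94.9% up to 10 RPKM, 98.1% up to 100 RPKM and 96.5% (82 of 85 genes) above 100 RPKM. Each library alone gave the same order up to 100 RPKM, from 12.8% at 0 to 97.7% in library 1 and from 11.2% to 98.3% in library 2. In all, 96.5% of the 8529 detected genes and 33.8% of the others were marked, while 36.3% of all genes were detected. Intervals at shared starts named several genes and were given to each; left out, they lowered the share of detected genes to 76.7%. Of the 10 highest genes 9 were marked. Beside Rn45s and the granule genes, Rpl4, for a ribosomal protein, had 446 and 534 RPKM, Atp5b, for an ATP synthase subunit, had 560 and 579, and Arhgdib, for an inhibitor of small GTPases in blood cells, had 616 and 503. The exception was S100a9. Marked genes held 95.3% and 96.3% of all RPKM in libraries 1 and 2, leaving out Rn45s.

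**Figure D1:**
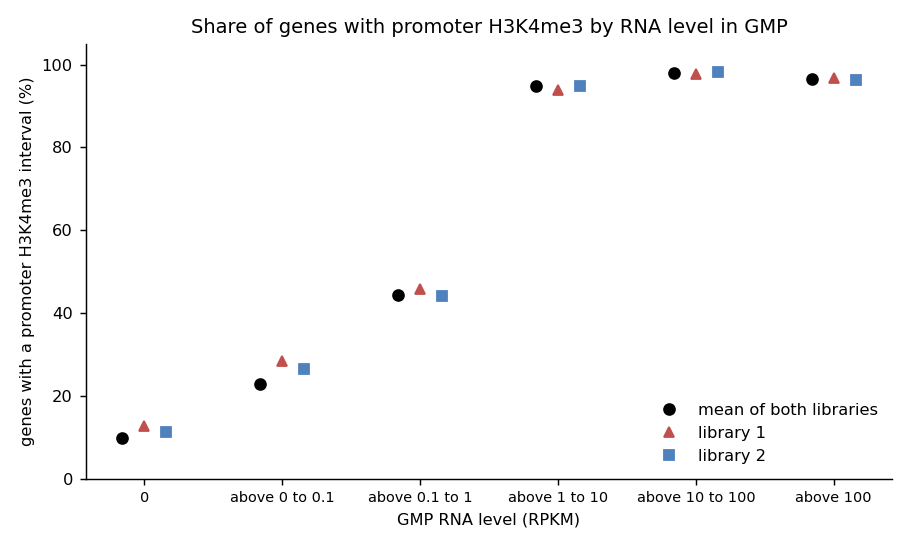
Share of genes with a promoter H3K4me3 interval (y axis, percent) in 6 bins of RNA level (x axis, RPKM). Points show bins by the mean of both libraries (black circles), by library 1 (red triangles) and by library 2 (blue squares); by the mean, the share runs from 9.93% at 0 RPKM to 94.9% between 1 and 10 RPKM and differs little above that.

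Among marked, detected genes, the RNA level was weakly related to the length and the enrichment of the mark. From the lowest to the highest decile of mean RPKM, the median summed interval length went from 974 to 1179 bases. The median pileup, the reads stacked at the highest summit, went from 42 to 53. Fold enrichment, the authors' ratio of a summit over a background that their file does not name, went the other way, from a median of 10.9 to 9.62. Across these 8227 genes, Spearman's rho of mean RPKM was 0.168 with summed length (0.163 and 0.171 by library), 0.207 with pileup and −0.0968 with fold enrichment (−0.0967 and −0.0926 by library). All genes share 1 ChIP library, and length and fold enrichment were themselves related, with a rho of −0.403. For the 7347 genes with a single start, the values were 0.172 for length and −0.0934 for fold enrichment. Both values depended on where detection began. With all marked genes of at least 0.1 RPKM in both libraries, 11327 genes, the rho was 0.367 with length and 0.121, of the other sign, with fold enrichment. From 5 RPKM it was 0.0826 and −0.142.

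Seen from the mark, the widest genes had somewhat more RNA. The decile of shortest marks, up to 689 bases, had a median of 3.33 RPKM, and the decile of longest marks, from 1577 to 3724 bases, had 5.74 RPKM. The quartiles overlapped, at 1.95 to 6.38 RPKM in the shortest decile and 3.19 to 11.8 RPKM in the longest. Genes above 100 RPKM were found in every decile of length, 5 in the shortest and 14 in the longest.

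The most abundant GMP genes stood at the low end of fold enrichment. Only 9 of the 8227 marked, detected genes had a lower fold enrichment than Mpo, at 2.95, although its pileup of 56 was above that of 70.4% of them. Elane had a fold enrichment of 3.64, with 41 genes lower, Prtn3 4.37, with 105 lower, and Ctsg, which encodes cathepsin G, 5.37, with 274 lower. Among all marked, detected genes the quartiles of fold enrichment were 8.51 and 12.8. Their lengths were spread widely. Prtn3 had 1 unbroken interval of 2739 bases, the longest single interval among marked genes, and 8 genes had a longer summed length. Ctsg had 1 of 2119 bases, Mpo 1 of 1050 bases and Elane 1 of 648 bases, shorter than 7607 other genes.

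**Figure D2:**
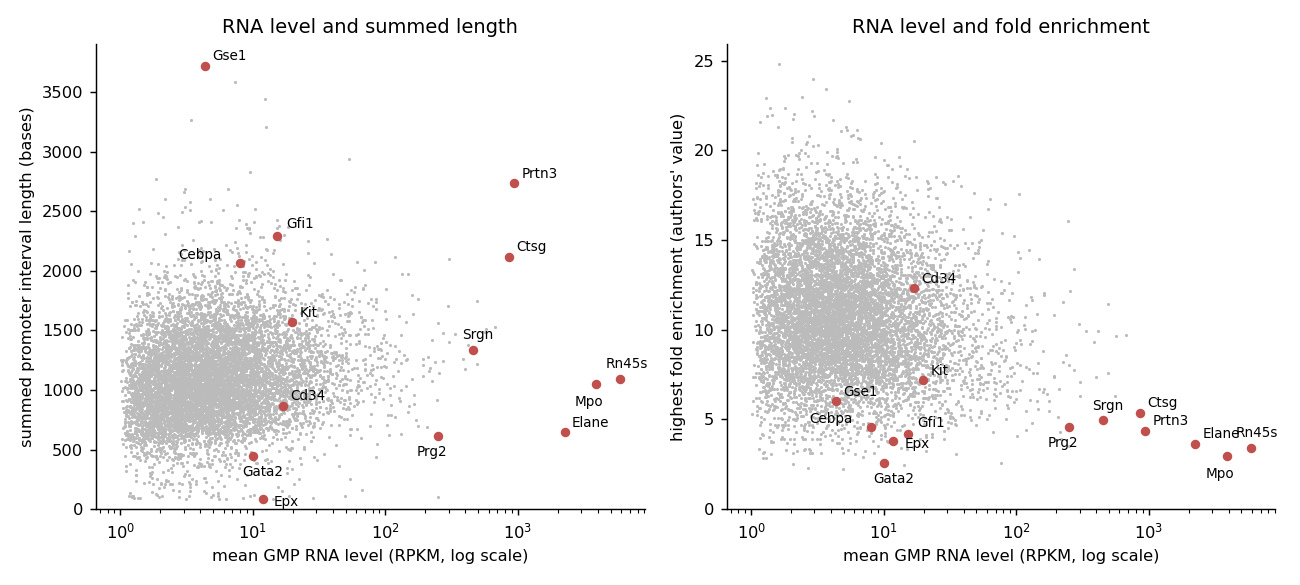
Marked, detected genes (grey points, n = 8227) by mean GMP RNA level (x axes, RPKM, log scale) against summed promoter interval length in bases (left) and the authors' highest fold enrichment (right). Named genes are in red; Mpo, Elane, Prtn3 and Ctsg lie at the right edge with fold enrichments of 2.95 to 5.37, while their summed lengths run from 648 to 2739 bases.

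These intervals lay inside the genes rather than over their starts. Coordinates are those of mm10. The Mpo interval (chr11:87794510-87795559) began 726 bases downstream of the annotated start, and a further 4 intervals of 112 to 571 bases lay in its exons and introns, with 2305 bases marked within 5000 bases of the start. The Elane interval (chr10:79886645-79887292) began 333 bases downstream, that of Prtn3 (chr10:79879969-79882707) 302 bases and that of Ctsg (chr14:56100009-56102127) 447 bases downstream. Elane and Prtn3 are neighbours on the same strand. The 4 gate genes had intervals over their starts. Those of Cd34 and Fcgr2b began 174 and 79 bases upstream and ended 692 and 578 bases downstream, at fold enrichments of 12.3 and 13.7. Kit and Fcgr3 had fold enrichments of 7.17 and 7.09, under the lower quartile of 8.51.

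Over the genes with a single start, marks placed only downstream of it were more frequent at higher RNA levels. Of the 7347 marked, detected genes of this kind, 64.8% had an interval over the start, 20.3% had intervals on both sides that left the start uncovered, 13.9% had intervals downstream only and 0.994% upstream only. The downstream-only share was 9.81% in the lowest decile of RPKM, 15.1% in the eighth, 23.7% in the highest and 40.3% (31 of 77) above 100 RPKM. With library 1 or library 2 alone, it was 24.2% and 23.1% in the highest decile and 39.5% and 41.3% above 100 RPKM. The 3′ edge of the marked stretch lay at a median of 684.5 bases past the start in the lowest decile to 964 in the highest. The 5′ edge went from 345 bases upstream (median −345) to a median of −297. With only the intervals above the median fold enrichment, the downstream-only share was 17.6% in the lowest decile, 37.0% in the highest and 45.6% above 100 RPKM. An interval in an exon or intron was annotated to 11.9% of genes in the lowest decile, to 17.1% in the highest and to 32.5% above 100 RPKM. Genes under 1 RPKM in a library also had a downstream-only share of 20.5%, so that this arrangement was not limited to high RNA.

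**Figure D3:**
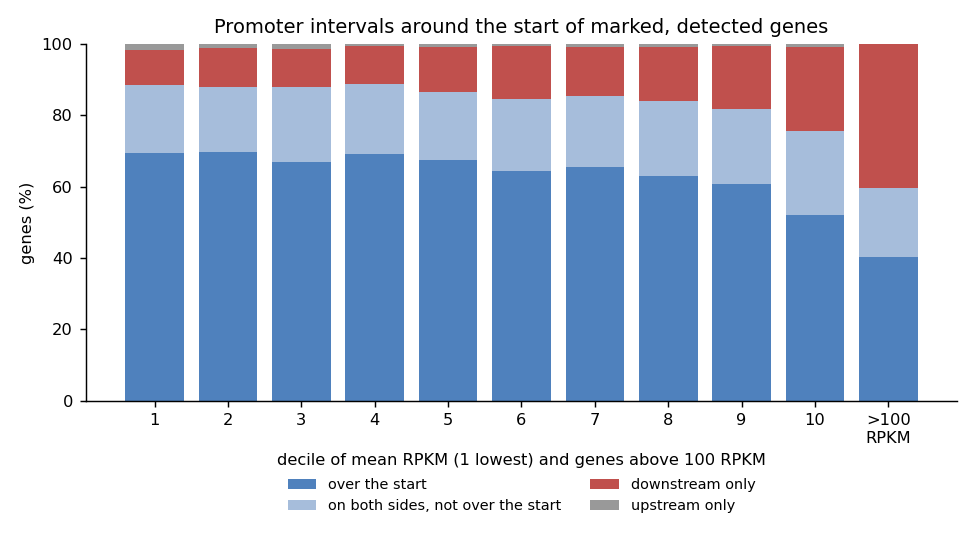
Placement of promoter intervals around the start (y axis, percent of genes) for marked, detected genes with 1 start, by decile of mean RPKM (x axis, 1 the lowest) and for genes above 100 RPKM. Downstream-only genes (red) make up 9.81% of the lowest decile, 23.7% of the highest and 40.3% of genes above 100 RPKM.

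The promoters of these genes are shown to set the bases upstream of marked and unmarked starts side by side. Each sequence is the 250 bases before the annotated start, from RefSeq on GRCm38.p6, written 5′ to 3′ in the direction of transcription, with each CG dinucleotide in capitals. Mpo and Elane are abundant and marked downstream, S100a8 is abundant and unmarked, Gse1 had the longest summed mark, and Pet117 was marked and listed at 0 RPKM.
Mpo: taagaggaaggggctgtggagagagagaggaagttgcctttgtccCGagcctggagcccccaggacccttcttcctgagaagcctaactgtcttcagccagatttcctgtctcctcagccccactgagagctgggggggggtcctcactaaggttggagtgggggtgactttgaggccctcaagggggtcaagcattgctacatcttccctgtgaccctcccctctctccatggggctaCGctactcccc
Elane: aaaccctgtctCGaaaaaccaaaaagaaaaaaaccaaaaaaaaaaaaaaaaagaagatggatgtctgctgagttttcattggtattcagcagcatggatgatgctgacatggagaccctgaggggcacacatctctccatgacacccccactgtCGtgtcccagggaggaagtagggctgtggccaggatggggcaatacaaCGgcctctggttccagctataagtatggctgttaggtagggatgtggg
S100a8: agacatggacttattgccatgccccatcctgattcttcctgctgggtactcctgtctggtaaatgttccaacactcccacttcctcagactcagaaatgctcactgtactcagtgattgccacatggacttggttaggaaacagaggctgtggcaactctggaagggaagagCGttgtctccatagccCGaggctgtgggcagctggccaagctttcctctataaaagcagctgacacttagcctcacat
Gse1: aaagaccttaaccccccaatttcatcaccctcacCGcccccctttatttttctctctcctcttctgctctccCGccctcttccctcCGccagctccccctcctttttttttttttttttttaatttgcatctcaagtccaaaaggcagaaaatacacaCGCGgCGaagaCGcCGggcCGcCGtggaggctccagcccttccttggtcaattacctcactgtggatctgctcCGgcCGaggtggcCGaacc
Pet117: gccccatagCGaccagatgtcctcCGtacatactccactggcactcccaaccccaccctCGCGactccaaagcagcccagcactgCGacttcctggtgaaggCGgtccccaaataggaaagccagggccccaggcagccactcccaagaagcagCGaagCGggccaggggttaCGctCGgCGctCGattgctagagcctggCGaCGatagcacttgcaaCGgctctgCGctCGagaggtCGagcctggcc
The Mpo, Elane and S100a8 stretches (chr11:87793534-87793783, chr10:79886062-79886311 and chr3:90668821-90669070, all plus strand) held 2, 3 and 2 CG. The median was 6 over 32851 RefSeq promoter windows, each cut to the same 250 upstream bases. Gse1 (chr8:120488616-120488865, plus strand) held 13 and Pet117 (chr2:144368733-144368982, plus strand) held 18. The letters TATAAA, searched on both strands, occurred 30 bases before the start of S100a8 and in none of the other 4, against 12.4% of all windows. GAGGAA, the core letters of PU.1 sites, occurred 2 times in Mpo (247 and 224 bases before the start), once in Elane (85 bases) and 2 times in S100a8 on the other strand (170 and 36 bases). It was in 23.3% of all windows. TGTGGT, the core of RUNX sites (14.1% of windows), and TTGCNNAA, a pattern for C/EBP factors (9.56%), were in none of the 5.

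The wider group of primary granule and early myeloid genes was nearly all detected and marked. Of 18 genes, 17 were detected and 16 of these were marked, beside 96.5% of all detected genes. Over all genes 36.3% were detected and 56.6% marked. The 16 had a median summed length of 1090.5 bases and a median fold enrichment of 6.40. Over all marked, detected genes these were 1081 bases and 10.5. Not all members encode granule proteins. Of the 16, 9 had intervals downstream of the start only, beside 13.9% of all marked, detected genes with 1 start and 40.3% of those above 100 RPKM. The median level of the list was 103 RPKM. Srgn, for the granule proteoglycan serglycin, had 446 and 463 RPKM and 1334 marked bases. Ms4a3, a membrane protein of these progenitors, had 189 and 164 RPKM and 1 interval of 1767 bases beginning 73 bases downstream. Lyz2, for lysozyme, had 106 and 67.6 RPKM and a short mark of 544 bases with a pileup of 8. The exceptions were Bpi, for a bactericidal protein of the same granules, under 1 RPKM and unmarked, and Gzmb, for granzyme B, at 3.10 and 16.7 RPKM and unmarked.

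Of 31 transcription factors of the myeloid line, 23 were detected and 29 marked, 22 of the 23 detected and 7 of the 8 undetected. Over all genes 36.3% were detected and 56.6% marked, 96.5% of the detected and 33.8% of the undetected. Myb, a progenitor factor, was highest at 104 and 97.9 RPKM, with 1401 marked bases and a fold enrichment of 4.08. Sfpi1, which encodes PU.1, had 29.9 and 35.7 RPKM and 1 interval of 1786 bases over its start. Cebpa had 7.26 and 8.70 RPKM with 2067 marked bases. Gfi1, a repressor needed for neutrophil formation, had 16.9 and 13.6 RPKM and 2296 bases, longer than 99.5% of marked, detected genes. Irf8, the monocyte and dendritic cell regulator, had 20.7 and 20.8 RPKM and 942 bases from 140 bases downstream. Irf4 and Hoxa9 were the unmarked members. Hoxa9, at 2.25 and 1.11 RPKM, had an exonic interval of 720 bases that began 1285 bases past the start, outside the 1000-base promoter window.

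The 17 factors of the eosinophil line were all marked in GMP, as were 29 of the 31 myeloid factors above. Of the 17, 12 were detected, and all 5 undetected ones were marked with a median of 786 bases. Over all genes 56.6% were marked, and of detected genes 96.5%. Of all genes under 1 RPKM in a library 33.8% were marked, with a median of 675 bases. Among undetected members of other lists, 7 of 8 myeloid factors and 7 of 8 cytokine receptors and partners were also marked. Gata1, which directs the eosinophil and erythroid lines, had 0.770 and 0.940 RPKM and 786 bases with a fold enrichment of 5.18 and a pileup of 9. Gata2 had 8.36 and 11.7 RPKM but only 445 marked bases and a fold enrichment of 2.58, with 5 genes lower. Gfi1b had 0.0969 and 1.27 RPKM and 929 bases, and Ikzf3, for the lymphoid and eosinophil factor Aiolos, had 0.337 and 0.327 RPKM and 342 bases. Xbp1, of the secretory stress response, and Ikzf1 were well above these, at 25.9 and 19.3 and at 22.9 and 29.9 RPKM, each with over 1000 marked bases.

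Of 29 receptors for growth factors and cytokines and their partners, 21 were detected and 26 marked, 19 of the 21 detected and 7 of the 8 undetected, beside 96.5% and 33.8% over all genes. Csf3r and Csf2rb, for the receptors of granulocyte and granulocyte-macrophage growth factors, had 19.2 and 17.1 and 19.0 and 15.9 RPKM with 983 and 873 marked bases. Il3ra and Flt3 were just under detection, at 0.930 and 0.998 and at 0.767 and 1.01 RPKM, and both were marked over 847 and 883 bases. Il5ra, the receptor that EoP gain, had 0.212 and 0.168 RPKM and no promoter interval. Il1rl1, the interleukin-33 receptor, at 1.54 and 1.66 RPKM, was detected and unmarked. In a list of 26 stem and progenitor genes, 15 were detected and 18 marked, and Hoxa9, Tal1 and Erg were among the detected, unmarked members. The nearest interval to Tal1 lay 1080 bases upstream of its start. An intronic interval of 2430 bases was annotated to Erg, with a fold enrichment of 4.08 and a pileup of 44.

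A small set of genes had RNA without a promoter interval. Of the 302 detected, unmarked genes, 140 had an interval that the authors annotated to the gene in another region and 77 were gene models or small RNAs. Their median RNA level was 2.73 RPKM, against 4.71 RPKM for the 8227 marked genes. Detected, unmarked genes differed more between the RNA libraries: 8.61% were at least 2-fold apart, against 1.36% of the marked ones. The sets were unlike in kind, with 77 of 302 gene models or small RNAs against 319 of 8227. Some unmarked ones had very few counts, such as Mir669c with 3 and 1. The part of counting error in this difference was not tested. At a mean of 10 RPKM or more, 39 genes were unmarked, 23 of them with an interval in another region. Some of these intervals lay close by. The proteasome ATPase gene Psmc1, at 15.1 and 14.1 RPKM, had an interval of 848 bases that ended 1335 bases upstream of its start, and Malat1, a nuclear long noncoding RNA at 251 and 234 RPKM, had 1 of 1620 bases from 1049 bases downstream. Ly6c1, a surface gene of monocytes at 87.9 and 59.7 RPKM, had an intronic interval of 122 bases. Its family member Ly6c2, at 177 and 119 RPKM, was marked over 816 bases. Whether reads were divided between Ly6c1 and Ly6c2 is unknown, so the level of Ly6c1 is uncertain. The small GTPase gene Rab7, at 43.0 and 37.7 RPKM, had its nearest interval 30655 bases upstream of its 1 listed start. That interval was annotated as intergenic and to Rpn1, with 944 bases, a fold enrichment of 11.2 and a pileup of 38. Whether it marks a start of Rab7 was not tested. Sgms2, a sphingomyelin synthase gene at 18.4 and 12.3 RPKM, had its nearest interval 41436 bases away.

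The highest unmarked genes were S100a9 and S100a8, which encode the calprotectin subunits of mature neutrophils. S100a9 had 897 and 256 RPKM, and S100a8 had 434 and 109, so library 1 was 3.50-fold and 3.99-fold above library 2. The nearest interval lay 55821 bases from the start of S100a8 and 82441 bases from that of S100a9. Of 19 late neutrophil granule genes found in the tables, 8 were detected and 1 was marked (Ltb4r1, a leukotriene receptor gene at 9.98 and 6.50 RPKM). Ngp, for a secondary granule protein, had 32.8 and 5.05 RPKM, Camp, for cathelicidin, 12.6 and 1.91, and Fcnb, for ficolin B, 61.2 and 29.6. Lcn2, for lipocalin 2, was more alike at 8.73 and 7.57. The list summed to 1464 and 423 RPKM, and 5 of its 8 detected genes were at least 2-fold higher in library 1, against 0.774% of all detected genes. Ltf, Mmp8 and Mmp9, which define later neutrophil stages, were under 1 RPKM in both libraries. None of the 11 undetected members was marked. What the share of late neutrophil RNA in library 1 adds to these values was not tested.

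Eosinophil granule genes also differed between the libraries. Of 11, 6 were detected and 5 marked, all 5 of them detected, beside 96.5% of all detected genes. All 6 detected were at least 2-fold higher in library 1, against 0.774% of all detected genes. Prg2, for major basic protein, had 405 and 93.6 RPKM (mean 249.5 ± 220.4, SD, n = 2) and 1 interval of 616 bases that began 815 bases downstream, with a pileup of 13, and 954 marked bases within 5000 bases of the start. Epx, for eosinophil peroxidase, had 18.1 and 5.59 RPKM and 1 interval of 89 bases, and no marked, detected gene had a shorter summed length. A further 3 Epx intervals of 151 to 411 bases lay in its exons and introns beyond the promoter window, with 828 marked bases within 5000 bases of the start. The ribonuclease genes Ear7 and Ear6, at 52.8 and 8.44 and at 18.1 and 2.30 RPKM, shared 2 intervals of 413 bases in all. Ear1, at 12.4 and 1.46 RPKM, had none. Reads of the near-identical Ear genes cannot be assigned with certainty. The list summed to 523 and 114 RPKM. The part of other cells of the gate in these values was not tested.

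Immediate early and stress genes were the main set higher in library 2. Of 32, 23 were detected and 29 marked. These were 22 of the 23 detected, beside 96.5% over all genes, and 7 of the 9 undetected, beside 33.8%. Their sum was 189 RPKM in library 1 and 657 in library 2, and 15 of the detected members were at least 2-fold higher in library 2, against 0.844% of all detected genes. Zfp36, which encodes an RNA-decay protein, had 16.7 and 110 RPKM, Dusp1, a phosphatase gene, 14.0 and 105, and Egr1 4.003 and 39.0. Fos and Jun had 17.0 and 77.3 and 12.95 and 65.2 RPKM. Every one of these 5 had over 1000 marked bases, in a ChIP library of a single sort. The median of all marked, detected genes was 1081 bases. The heat shock genes Hspa1a and Hspa1b went the other way, at 4.47 and 0.923 and at 5.002 and 1.22 RPKM. Outside the list, among genes of at least 20 RPKM in the higher library, the largest ratio in this direction was in Rgs1, a regulator of G protein signalling at 3.21 and 37.7 RPKM, with 209 marked bases. What set the libraries apart was not tested.

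**Figure D4:**
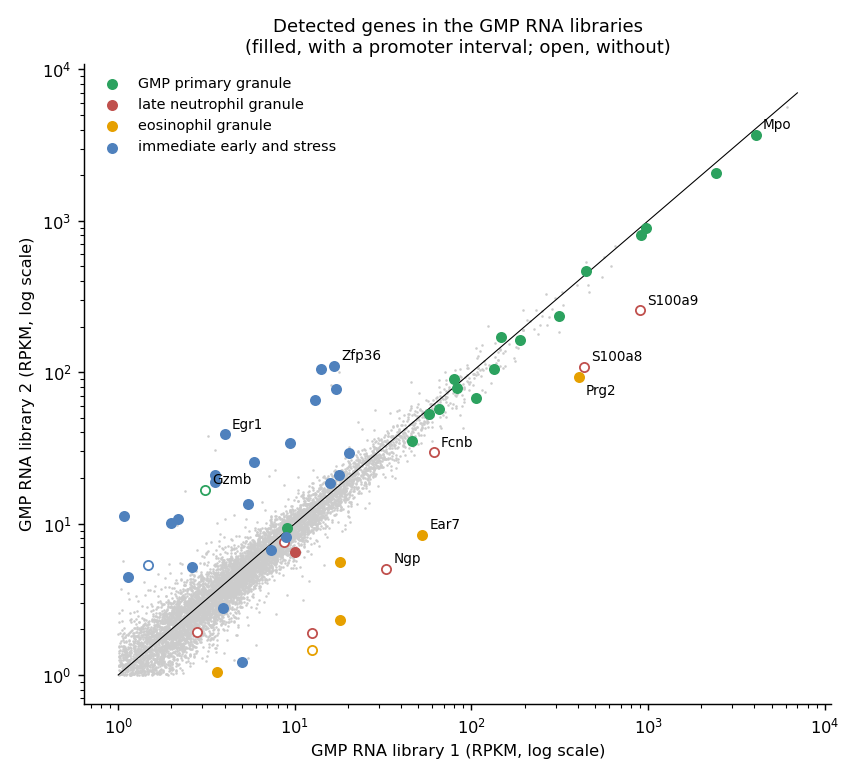
RPKM of detected genes in GMP RNA library 1 (x axis) and library 2 (y axis), both on log scales, with the line of equality; coloured points are members of 4 gene lists, filled where the gene had a promoter interval and open where it had none. Primary granule genes follow the line apart from Gzmb, late neutrophil and eosinophil granule genes lie below it (S100a9 at 897 and 256 RPKM), and most immediate early genes lie above it (Egr1 at 4.003 and 39.0 RPKM).

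Genes of general cell functions were mostly detected and marked, with exceptions mainly among ribosomal protein and histone genes. Over all detected genes the marked share was 96.5%. All 40 replication genes, 33 mitosis genes, 27 translation factors and 30 ribosome biogenesis genes were detected and marked, at median levels of 11.5, 10.1, 30.7 and 6.89 RPKM. Their median fold enrichments, 9.38 to 11.3, were above the 6.40 of the primary granule genes, whose median level was 103 RPKM. Of 38 proteasome genes all were detected and 36 marked, the others being Psmc1 and the germ cell subunit gene Psma8. Of 80 respiratory chain and ATP synthase genes 74 were detected and 76 marked. Of 85 cytosolic ribosomal protein genes 71 were detected and 81 marked. Among the 10 undetected, marked ones, Rpl29 had 0 and 0.0700 RPKM beside 1203 marked bases and a fold enrichment of 14.3, and Rpl26 had 0.0770 and 0. Ribosomal protein genes have many near-identical copies, between which the authors' counting could divide reads, so such low values are uncertain. The same holds for the replication-dependent histone genes, of which 41 of 67 were detected and 46 marked; Hist1h4d had 312 and 184 RPKM with 104 marked bases.

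Genes of other lineages were mostly undetected, and how often they were marked differed by list. Of 88 developmental transcription factors of other tissues none was detected and 38 (43.2%) were marked, against 33.8% of all undetected genes, with short marks (median 180 bases, fold enrichment 4.75, pileup 6). Gbx2 had the longest, 899 bases at 0.118 and 0.0701 RPKM, while Pax6, of the eye and brain, had 278 bases at 0.130 and 0.159 RPKM. Of 39 Hox genes 12 were marked, among them Hoxa4 at 0.465 and 0.325 RPKM with 926 bases and a fold enrichment of 16.02. Of 20 T and NK cell genes, a list without Nkg7, none was detected and 5 were marked, all of them transcription factors: Tcf7, Tbx21, Bcl11b, Eomes and Gata3. Of 17 B cell genes 3 were marked, and of 19 erythroid genes 6, with Klf1 at 0.327 and 0.745 RPKM under 975 marked bases and the globin genes unmarked. Of 45 liver, muscle, skin and neuron genes 5 were marked, of 1102 olfactory receptors 4 and of 326 vomeronasal receptors 1.

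Lists of myeloid side branches lay between these. Among 24 genes of monocytes, macrophages and dendritic cells, 18 were detected and 16 marked. Ly6c2 had 177 and 119 RPKM and 816 marked bases, while Cybb, for an oxidase subunit of mature phagocytes, at 15.7 and 9.29 RPKM, and Cd74, for the invariant chain, at 10.9 and 4.502 RPKM, were unmarked. Of 15 mast cell and basophil genes 7 were detected and 7 marked. The basophil protease genes Prss34 and Mcpt8, at 141 and 120 and at 90.8 and 78.0 RPKM, had 630 and 437 marked bases. Fcer1a, for a chain of the IgE receptor, at 19.2 and 15.7 RPKM, had an intronic interval from 1445 bases downstream only.

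**Figure D5:**
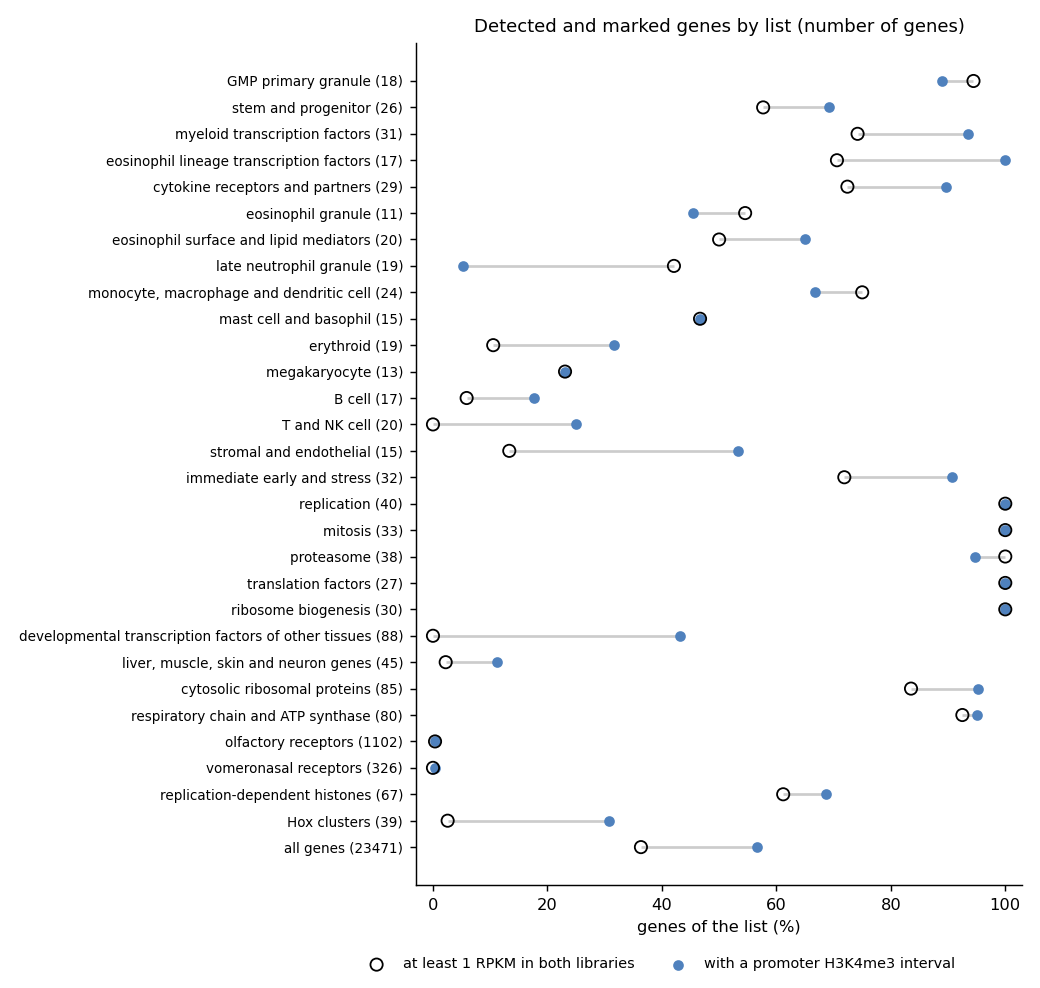
Percent of genes of each list (x axis; number of genes in brackets) that were detected, at 1 RPKM or more in both libraries (open circles), and that had a promoter H3K4me3 interval (blue points). Late neutrophil granule genes had 8 of 19 detected and 1 marked, and developmental transcription factors had 0 of 88 detected and 38 marked; over all genes 36.3% were detected and 56.6% marked.

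Some marks beside no RNA belonged to a shared start. Of the 203 marked genes listed at 0 in both libraries, 102 were gene models or small RNAs. So were 942 of the 1841 unmarked genes at 0, a like share. In 87 of the 203 every interval was shared with another gene, against 2694 of all 13278 marked genes. In 48 of these 87 the other gene was detected. The other 116 had an interval of their own. Most named genes with the longest marks were of this kind. Pet117, for a mitochondrial assembly factor, shared 1 interval of 1473 bases with Csrp2bp (5.85 RPKM in mean). Raver1-fdx1l and Nup62-il4i1 are read-through transcripts that share starts with Raver1 (34.9 RPKM) and Nup62 (21.9 RPKM), and Rpl34-ps1, a ribosomal pseudogene, shared 1158 bases with Rpl34 (52.6 RPKM). Eif3j2 (1392 bases) and Atp6v0c (1526 bases), a subunit gene of the vacuolar proton pump, have near-identical copies, so that a listed 0 is uncertain. Fam181b was the only one of the 10 with an interval of its own, at 1151 bases and a pileup of 11.

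The longest and the most enriched marks were on different genes. Gse1, which encodes a protein found with chromatin-silencing complexes, had 3724 bases in 5 intervals over 3 starts at 3.91 and 4.75 RPKM. It was followed by Hnrnpf, a splicing factor gene, with 3590 bases in 9 intervals over 4 starts at 7.32 and 7.27 RPKM, and by Slc3a2, a subunit gene of amino acid transporters, with 3443 bases at 11.4 and 13.4 RPKM. Prtn3, ninth by summed length, was the only one of the first 10 with a single start. The highest fold enrichment, 35.5, was at an interval of 180 bases shared by the near-identical genes Srp54b and Srp54c, both undetected. Among detected genes it was 24.8 at Zfp866, for a zinc finger protein at 1.89 and 1.33 RPKM with 586 marked bases. Dhx30, an RNA helicase gene at 3.06 and 2.74 RPKM, reached 23.99.

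Of detected genes 94.5% were marked in EoP and 93.8% in Eos, beside 96.5% in GMP. Of genes listed at 0, 4.23% of 7558 were marked in EoP and 7.54% of 5546 in Eos, beside 9.93% of 2044 in GMP, so that these shares are of classes of unlike size. Each cell type had 1 ChIP library and the peak lists were of different length, with 19816 intervals in EoP and 33847 in Eos, so these differences were not tested. The rho of RPKM with summed length was 0.201 in EoP and 0.235 in Eos, and with fold enrichment −0.0384 and −0.129.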

How the data were processed

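RNA of 2 GMP sorts and H3K4me3 of 1 GMP sort were measured by sequencing. Per the file headers, the RNA tables list for each RefSeq transcript the authors' estimated count, as whole numbers, and the authors' RPKM. The peak table gives for each summit the authors' pileup signal, the −log10 of its p-value and q-value, its fold enrichment and the length of its interval. STAR 2.4.0c, Bowtie 1.0.0 and mm10 are named, without a role, in the submitters' processing notes. How reads were counted, whether by strand, which program called the peaks and against which control was not stated there or in the labels, so overlapping and antisense genes cannot be told apart. Replicates were not pooled by the authors.

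From these, RPKM of all 31213 lines (30396 transcripts) were summed by symbol, which gave 23471 genes (22 with lines on more than 1 chromosome). The 52791 summits fell into 30645 intervals by chromosome, start and end, and an interval took its highest summit. Some promoter intervals (2666, 13.3%) named several genes with a shared start, joined by commas; these names were split, so that each gene received the interval. For 2694 genes every promoter interval was of this kind. A gene took the sum of its interval lengths and the highest fold enrichment and pileup. The annotated promoters matched intervals within 1000 bases of a start, with 11 genes near an interval but not annotated and 0 the reverse. No table held columns of other series (0).

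Shares, medians and Spearman correlations were computed with Python 3.11.15, pandas 2.3.3, numpy 2.4.6 and scipy 1.17.1, and plotted with matplotlib 3.10.9. The code was tested on simulated data. There was no test between groups: 1 cell type was described. Floors are 3 counts of a library's summed estimated counts and cover counting error only. Promoter sequences and their build come from RefSeq. The table held 75.2% of all genes, 81.1% of marked, detected genes and 64.9% of unmarked, detected genes, so a check of CpG content over sets was void and single genes are shown.

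The members, the 29 gene lists and the rules were chosen with earlier results of these data known. The genes named by rule are the gate genes, the 10 highest in RNA, the 10 highest without a promoter interval and the 6 without any, the 10 longest summed marks, the 6 highest fold enrichments, the 10 longest marks at 0 RPKM, in each list up to 4 highest members, up to 3 unmarked and up to 3 undetected with the longest marks, and the 5 largest ratios between libraries in each direction at 20 RPKM or more in the higher library. Gene models, small RNAs and Y-linked genes were left out of all but the lists. Other named genes, and the placement of intervals around the start, were chosen after their values were seen. The alternatives were each RNA library alone, the highest transcript in place of the sum, each transcript once, any annotated interval, intervals within 1000 bases of a start, the upper part of intervals by fold enrichment, a −log10 q of at least 10, no gene models or small RNAs, detection at 0.1 or 5 RPKM, and the longest interval with the mean fold enrichment. Some genes that the rule names are not reported here.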

Additional observations from a re-analysis of the deposited data

How the results depend on the processing

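No paired analysis was possible because the results come from no test and describe 1 cell type. Of 128 values of the 8 main measures under the alternatives, 67 were classed as the same, 60 as moved and 1 changed sign. The spread between libraries set the limit, except for the marked share of all genes, which has no such spread. There, changes from 56.57% to 56.62% and 56.61% were also classed as the same. Some of the 67 could not move, so their number does not measure stability. The marked share of all genes uses no RNA value. The top 10% and listed-at-0 measures use no detection limit, and the longest interval with the mean fold enrichment changes no marked share. The values below give, in turn, marked shares of all, detected, top 10% and listed-at-0 genes, then the median RPKM of marked, detected genes, rho of RPKM with length and with fold enrichment, and the median length in the top 10%, where each moved; the main values are 56.6%, 96.5%, 98.2%, 9.93%, 4.71 RPKM, 0.168, −0.0968 and 1157.5 bases. With 1 RNA library left out they ranged over 94.7% to 95.6%, 97.7% to 98.1%, 11.2% to 12.8%, 4.40 to 4.57 RPKM, 0.178 to 0.182, −0.0876 to −0.0768 and 1152 to 1155.5 bases. The highest transcript gave 97.9%, 4.44 RPKM, 0.152 and 1148 bases. Any annotated interval gave 64.9%, 98.1%, 99.2%, 19.3%, 0.152 and 1252 bases. Intervals above the median fold enrichment gave 48.5%, 90.8%, 90.6%, 6.07%, 0.145 and 996 bases. A −log10 q of at least 10 gave 45.6%, 91.9%, 94.1%, 4.75%, a fold enrichment rho of −0.120 and 1068 bases. Without gene models and small RNAs, 62.5% of all and 97.2% of detected genes were marked. Detection at 0.1 RPKM gave 78.8%, 3.01 RPKM and a rho of 0.367 with length and 0.121 with fold enrichment, the reversed sign. Detection at 5 RPKM gave 98.0%, 10.4 RPKM, 0.0826 and −0.142. The longest interval gave 0.186 and 902 bases. The next were chosen after seeing the data. Joined gene names left unsplit, which leaves out genes with shared starts, gave 45.1%, 76.7%, 79.4%, 5.68%, 0.190 and 1083 bases. Genes with 1 start gave 55.7%, 0.172 and 1140 bases. All intervals within 5000 bases gave 60.7%, 97.6%, 99.0%, 16.2%, 0.171 and 1226 bases. Leaving out the late neutrophil list, 8 of 8529 detected genes, could move little and moved none of the 8. Other causes were not tested. The downstream-only share above 100 RPKM was 45.6% with intervals above the median fold enrichment and 50.7% with the q limit; in the lowest decile of RPKM it was 17.6% and 18.6%, against 9.81% in the main setting, and in the highest 37.0% and 33.9%, against 23.7%. Unsplit names gave 12.9% in the lowest and 29.5% in the highest decile. With 1 ChIP library of unknown depth, an unmarked promoter may lie under the peak threshold.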

Other observations

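Gene lists not described above fell between the extremes. Of 20 eosinophil surface and lipid mediator genes 10 were detected, all of them marked, and 3 of the other 10 were marked. Ccr3, the eotaxin receptor gene, had 0.166 and 0.0911 RPKM and no promoter interval. Of 13 megakaryocyte genes 3 were detected and 3 marked, with Pf4 among those detected and unmarked. Of 15 stromal and endothelial genes 2 were detected and 8 marked, among them Kdr, an endothelial growth factor receptor gene, at 0.184 and 0.137 RPKM with 685 bases.

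Mitochondrial DNA carries no histones, and 4 intervals lay on it, with fold enrichments of 3.14 to 4.54 and pileups of 8 to 12. Of the 20109 promoter intervals, 2240 (11.1%) were at or under the highest of these in both measures. Outside promoters, the 10536 intervals had a median length of 171 bases and a median fold enrichment of 4.67, against 499 bases and 7.14 in promoters.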
